A study of Zea mays with 6 samples.

Results

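The genes described here build and use the cytoskeleton of the maize leaf: the tubulins, the actin-depolymerizing factors and the kinesins. They were found on the array by name. A probe set is the group of short probes that measures a transcript, and it was taken where its only gene symbol in the platform annotation, a synonym of that gene or its title in the supplement matched alpha-, beta- or gamma-tubulin, actin, actin-depolymerizing factor or kinesin. This gave 38 of 17621 probe sets for 27 genes, namely 6 probe sets for alpha-tubulin, 10 for beta-tubulin, 5 for gamma-tubulin, 7 for actin-depolymerizing factor and 10 for kinesin. Of the tubulin symbols tua1, tua3, tub1 and tub4, tua1 and tub4 were matched, while no probe set carried the names tua3 or tub1. For actin itself, 0 probe sets matched outside the control probes of the array. Of the 38 probe sets, 34 were named by the platform annotation and 4 by the title alone, and 31 had their gene in the RefSeq gene table of the B73 reference.

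RNA came from leaves of plants grown in the field, cut without the tip and the central vein. The hybrid DKC6575 carries the MON810 event, in which the cauliflower mosaic virus 35S promoter drives a synthetic CryIAb gene against the European corn borer, and Tietar is its near-isogenic, non-GM counterpart. Each was sampled in 3 conditions: T2 drought (silking, 0% of field capacity, not watered since the V6 stage), T2 control (silking, 100% of field capacity) and T1 control (V8 stage, fully watered). There was 1 array per variety and condition, 6 in all, and how the plants of a plot entered an array is not given in the sources used here. The study describes 1 field plot for each water regime, so drought and plot cannot be told apart.

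Microtubules are hollow tubes of alpha- and beta-tubulin pairs, and gamma-tubulin starts their growth. In leaf cells the array of microtubules under the plasma membrane guides where cellulose is laid down, so it shapes cells while they expand. Kinesins are motor proteins that walk along microtubules. Actin filaments carry organelles and vesicles through the cell, and actin-depolymerizing factors sever and take apart these filaments, while profilins hold the free actin subunits. In maize, adf1 and adf2 are known from pollen and adf3, also called abp3, from the other organs of the plant. The study used this last gene, as Zmabp3, to normalise its own PCR measurements.

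Signals are the deposited intensities, not on a log scale, and their 2% trimmed mean was 500.2 or 500.3 on each of the arrays. Differences are on the log2 scale, where 1 is a 2-fold difference. Median signals lay between 118 and 141, and between 39.6% and 41.6% of the signals of an array were under 64. Probe sets whose log2 signal averaged 6 or more, which is a signal of 64, are called brighter here, and they numbered 19 of the 38 and 10383 of the 17621. Dim probe sets differed widely between any 2 arrays. Among the 7219 outside the 38 with a mean log2 signal under 6, the SD of the drought difference was 1.33 in DKC6575 and 1.47 in Tietar. It was 0.38 and 0.56 among the 3468 outside the 38 between 6 and 8. Markers of leaf tissue, from the small subunit of Rubisco to the light-harvesting proteins, had summed signals between 131525 and 242285 over 20 probe sets. Of the 20, 16 were brighter and the others dim.

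Changes shared by both varieties were tested with limma over all 17621 probe sets, with variety as a block, so that the 2 varieties serve as the replicates, and p-values were adjusted by the Benjamini-Hochberg method. This leaves 2 residual degrees of freedom, and the p-values measure the spread between these arrays only. They do not measure the spread between plots of the same water regime. The prior variance followed the signal, as dim probe sets scatter more. With a single prior over all 17621, limma called 0 in any of the comparisons made here. With a single prior over the 10383 brighter probe sets alone, 1209 were called between the growth stages. Among them were tub4, tub6 and the kinesin light chain (limma adjusted p = 0.018, 0.0213 and 0.0473), while tub7 had 0.0616. The calls of dim members below depend on the prior. In a tissue sample, fewer cells of a type and less RNA per cell cannot be told apart.

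Between the T2 control and the T1 control, 6 of the 38 probe sets changed in both varieties, 4 higher and 2 lower at T2. Over the array the same test called 9.6% of the probe sets, 1098 higher (6.23%) and 593 lower (3.37%). When each array was centred on its median, that split turned to 776 higher and 1126 lower over the array, and to 3 higher and 2 lower among the 38. The changes lay in 2 groups. Among beta-tubulins, tub4 and tub7 fell and tub6 rose, and among actin-depolymerizing factors adf1, adf2 and a member known by its title alone rose. Of the 6 alpha-tubulin, 5 gamma-tubulin and 10 kinesin probe sets, 0 were called between the stages, and the lowest adjusted p among their brighter ones was 0.208, 0.69 and 0.115.

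The beta-tubulin tub4 (NCBI gene 542417) had the largest difference between the T2 and T1 controls among the brighter probe sets. Its signal was 610.0 in DKC6575 and 588.9 in Tietar in the T2 control, against 1268 in DKC6575 and 1285 in Tietar at T1. Under drought at T2 it was 532.5 in DKC6575 and 593.2 in Tietar. Every T2 array lay below both T1 arrays, and the varieties stood close to each other in each condition. The common difference between the stages was -1.09 on the log2 scale (SE 0.10), 2.13-fold lower at T2, with a limma adjusted p of 0.00174. Leaving out any 1 of the 6 arrays kept the call, with differences from -1.16 to -1.02. The title given to this probe set names a second, hypothetical protein beside tub4.

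The beta-tubulin tub7 (NCBI gene 542705) fell less. Its signal was 1638 in DKC6575 and 1493 in Tietar in the T2 control, against 2089 in DKC6575 and 2233 in Tietar at T1. Under T2 drought it was 1337 in DKC6575 and 1406 in Tietar, so every T2 array again lay below both T1 arrays. The common difference was -0.47 (SE 0.10, limma adjusted p = 0.0258), 1.38-fold lower at T2. The call was lost without either T1 array or without the T2 control array of Tietar, with an adjusted p of up to 0.285.

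The beta-tubulin tub6 (NCBI gene 542239) went the other way. It stood at 141.3 in DKC6575 and 98.7 in Tietar in the T2 control, against 74.5 in DKC6575 and 53.5 in Tietar at T1. Under T2 drought it was 185.7 in DKC6575 and 119.5 in Tietar, the highest signal of each variety. The common difference was 0.90 (SE 0.21, limma adjusted p = 0.0349), 1.87-fold higher at T2. DKC6575 was above Tietar in all 3 conditions, by 0.64 under T2 drought, 0.52 in the T2 control and 0.48 at T1 (common difference 0.54, SE 0.17, unadjusted p = 0.0131, limma adjusted p = 0.692). The stage call did not hold under cyclic loess, quantile normalization or median centring, where the adjusted p was between 0.0519 and 0.0694, nor without any 1 of the 4 control arrays, where it reached 0.229. The other 3 probe sets of tub6 were dim, with mean log2 signals of 5.55, 1.34 and 2.36, and none of them passed.

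The remaining brighter beta-tubulin, tub3 (NCBI gene 542416), had its lowest signals under drought. It read 543.5 in DKC6575 and 469.8 in Tietar under T2 drought, 713.4 in DKC6575 and 623.4 in Tietar in the T2 control, and 865.9 in DKC6575 and 688.8 in Tietar at T1. The order of the 3 conditions was the same in both varieties, and DKC6575 was above Tietar each time. Neither step passed the test by itself: the drought difference was -0.40 (SE 0.10, limma adjusted p = 0.14) and the stage difference -0.21 (SE 0.10, limma adjusted p = 0.251). The 3 probe sets of tub2 and tub5 were dim, with log2 signals that averaged 5.18, 5.26 and 3.08, and did not pass in any comparison.

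**Figure D1:**
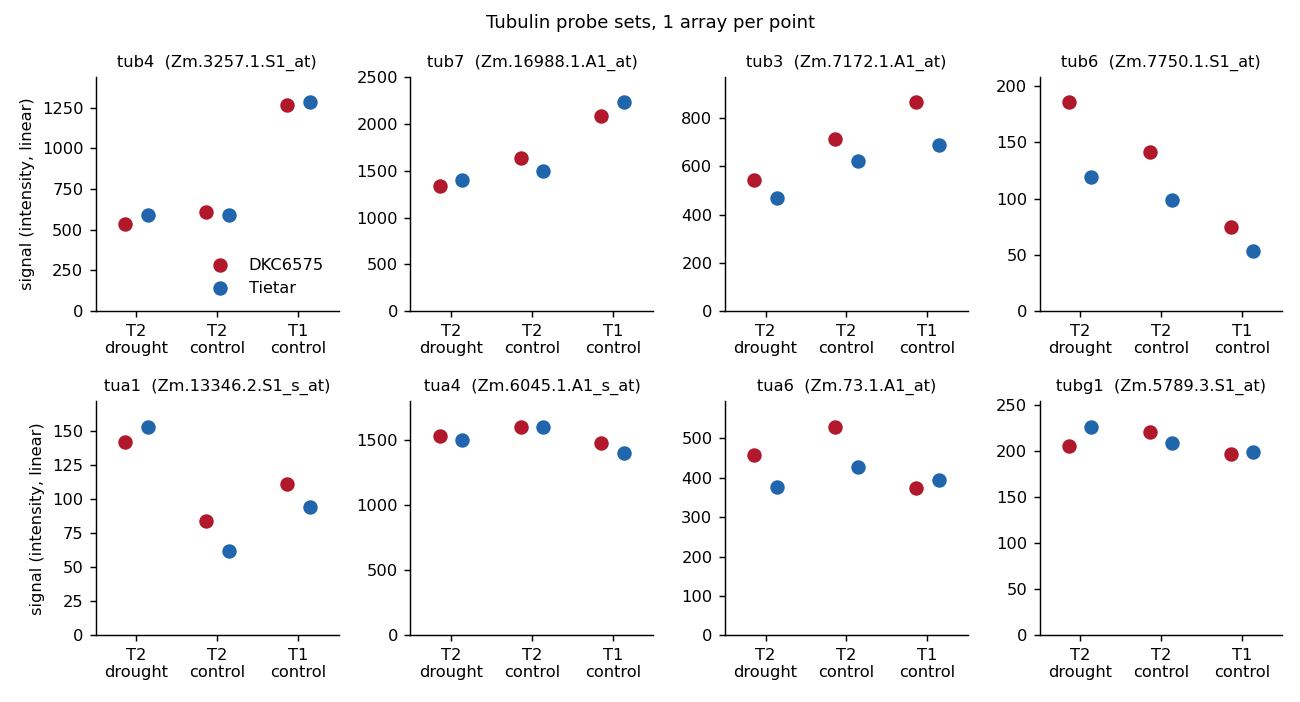
Signal (linear intensity, from 0) of 8 tubulin probe sets on the 6 arrays, with T2 drought, T2 control and T1 control from left to right and DKC6575 left of Tietar; each point is 1 array. For tub4 both T1 points, at 1268 and 1285, stand clear of the 4 T2 points, which lie between 532.5 and 610.0, while tub6 runs the other way and tua4 and tubg1 are level.

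The alpha-tubulins were level between the stages. The tua4 probe set of the type _s_at (NCBI gene 542413) read 1529 in DKC6575 and 1500 in Tietar under T2 drought, 1604 and 1601 in the T2 control, and 1481 and 1398 at T1. Its whole range over the 6 arrays was 0.20 on the log2 scale, the narrowest of the 19 brighter probe sets. This ending marks probes shared by several genes, so this signal can hold other alpha-tubulins. The second tua4 probe set, tua5 and tua6 had ranges of 0.37, 0.64 and 0.50, and their stage differences, 0.06, -0.05 and 0.31, did not pass.

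The exception among alpha-tubulins was tua1. Its probe set of the same shared type (NCBI gene 100037751) read 141.5 in DKC6575 and 153.0 in Tietar under T2 drought, 83.8 in DKC6575 and 61.6 in Tietar in the T2 control, and 110.6 in DKC6575 and 93.9 in Tietar at T1. Both drought arrays were above all 4 control arrays, and both T2 control arrays were below all others. The drought difference was 0.76 in DKC6575 and 1.31 in Tietar. The common difference of 1.03 (SE 0.23) had a limma adjusted p of 0.0993, the lowest of the 38 under drought and above the threshold of 0.05. The other probe set of tua1, with the ending _at of probes for a single gene, gave signals between 1.82 and 4.23 on all arrays, in the dimmest range.

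Gamma-tubulin and the brighter kinesins passed in no comparison over all probe sets. The brighter single-gene probe set of tubg1 (NCBI gene 542436) had signals of 205.4 in DKC6575 and 226.1 in Tietar under T2 drought, 220.4 and 208.7 in the T2 control, and 196.0 and 199.0 at T1, a range of 0.21 on the log2 scale. The other brighter tubg1 probe set, of the type _a_at, read 133.7 in DKC6575 and 174.6 in Tietar under T2 drought, against 140.2 and 110.4 in the T2 control, so the varieties differed in direction, with -0.07 in DKC6575 and 0.66 in Tietar. The dim probe set of TUBG2, the second gamma-tubulin gene, had 45.7 in DKC6575 and 57.1 in Tietar under T2 drought, against 44.3 and 28.2 in the T2 control, a difference of 0.05 in DKC6575 and 1.02 in Tietar. The common drought differences of both, 0.30 and 0.53, did not pass (limma adjusted p = 0.639 and 0.629). Ranges of the 5 brighter kinesin probe sets ran from 0.34 for kin15 to 0.81 for the kinesin heavy chain isolog, all under 2-fold. The heavy chain isolog had 95.9 in DKC6575 and 107.0 in Tietar under T2 drought, against 68.8 and 64.6 in the T2 control. Its common drought difference was 0.60 (SE 0.25, unadjusted p = 0.045, limma adjusted p = 0.356). The kinesin light chain, which in animals is the cargo-binding part of the motor, read 138.0 in DKC6575 and 137.2 in Tietar under T2 drought, 192.8 and 168.3 in the T2 control, and 134.0 and 117.6 at T1. Its T2 control arrays were the 2 highest, 0.52 above T1 (SE 0.17, limma adjusted p = 0.115). KIN1, KIN9 and kin15 had adjusted p-values of 0.648, 0.762 and 0.71 under drought.

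Among the actin-depolymerizing factors, 3 probe sets that were dim at T1 were higher at T2. The signal of adf1 (NCBI gene 542430) was 157.4 in DKC6575 and 121.6 in Tietar under T2 drought, 108.1 in DKC6575 and 61.0 in Tietar in the T2 control, and 22.0 in DKC6575 and 19.4 in Tietar at T1. For adf2 (NCBI gene 542584) the signals were 73.3 and 54.0, 59.98 and 29.8, and 10.5 and 7.43, DKC6575 given before Tietar and the conditions as for adf1. The probe set known as an actin-depolymerizing factor by its title alone, the title-only ADF, had 167.4 in DKC6575 and 87.8 in Tietar under T2 drought, 109.8 and 81.8 in the T2 control, and 2.14 and 4.25 at T1. In all 3 the T2 arrays lay above both T1 arrays, and both T1 signals were in the range where probe sets scatter most.

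The common stage differences were 1.97 for adf1 (SE 0.30, limma adjusted p = 0.00816), 2.26 for adf2 (SE 0.44, adjusted p = 0.0183) and 4.98 for the title-only ADF (SE 0.53, adjusted p = 0.0029). Because both T1 arrays are dim, the fold sizes of 3.93, 4.79 and 31.5 are poorly fixed. The mean log2 signals over the 6 arrays were 5.94, 4.84 and 5.03, just under or below the limit for brighter probe sets. Without the T1 array of DKC6575, adf1 had an adjusted p of 0.0825. The call of adf2 was lost without either T1 array or the T2 control array of DKC6575, where it reached 0.137. The title-only ADF was called without any 1 of the 6 arrays. Another probe set with this title was dim and did not pass (adjusted p = 0.518).

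Pollen transcripts moved with these 3 genes. Of 16 probe sets for pollen markers, 14 were called higher in the T2 control than at T1 and 0 lower, and their summed signal was 6396 in DKC6575 and 3996 in Tietar in the T2 control, against 1131 in DKC6575 and 1469 in Tietar at T1. Under drought at T2 it was 6527 in DKC6575 and 4997 in Tietar. A probe set titled as major pollen allergen Car b 1 made up much of these sums. It read 822 in DKC6575 and 1067 in Tietar at T1, 2268 and 1812 in the T2 control, and 1989 and 2549 under T2 drought. Among the 14 were 4 pollen profilins. The profilin prf2 had 307.3 in DKC6575 and 169.6 in Tietar in the T2 control, against 3.55 in DKC6575 and 6.51 in Tietar at T1, a common difference of 5.57 (SE 0.44, limma adjusted p = 0.000908). The pollen enzyme exopolygalacturonase1, which cuts cell wall pectin, had 1139 and 576.2 in the T2 control, against 2.51 and 7.06 at T1, DKC6575 given before Tietar. The part of pollen RNA in the rise of adf1, adf2 and the title-only ADF was not tested.

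The varieties differed in the same direction in both sets at T2. In the T2 controls, DKC6575 exceeded Tietar by 0.82 for adf1, 1.01 for adf2 and 0.42 for the title-only ADF, and the median over the 16 pollen probe sets was 0.96. Under drought the 3 differences were 0.37, 0.44 and 0.93, with a pollen median of 0.82. At T1 they were 0.18, 0.50 and -0.99, with a pollen median of -0.34. Over 3 conditions none of the 3 passed as a difference between varieties (limma adjusted p = 0.854, 0.854 and 0.979).

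The profilin prf5, which is not on the pollen list, was level. It had 6594 in DKC6575 and 6168 in Tietar under T2 drought, 7272 and 7815 in the T2 control, and 7817 and 6783 at T1, a range of 0.34 on the log2 scale. Its stage difference was 0.05 (SE 0.11, limma adjusted p = 0.846). Another brighter profilin off the pollen list, titled profilin-2 and measured apart from prf2, was lower at T2. Its stage difference was -0.28 in DKC6575 and -0.26 in Tietar, and did not pass (common -0.27, SE 0.10, limma adjusted p = 0.137). Between T2 drought and T1 it was called lower (-0.38, SE 0.10, limma adjusted p = 0.0358).

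**Figure D2:**
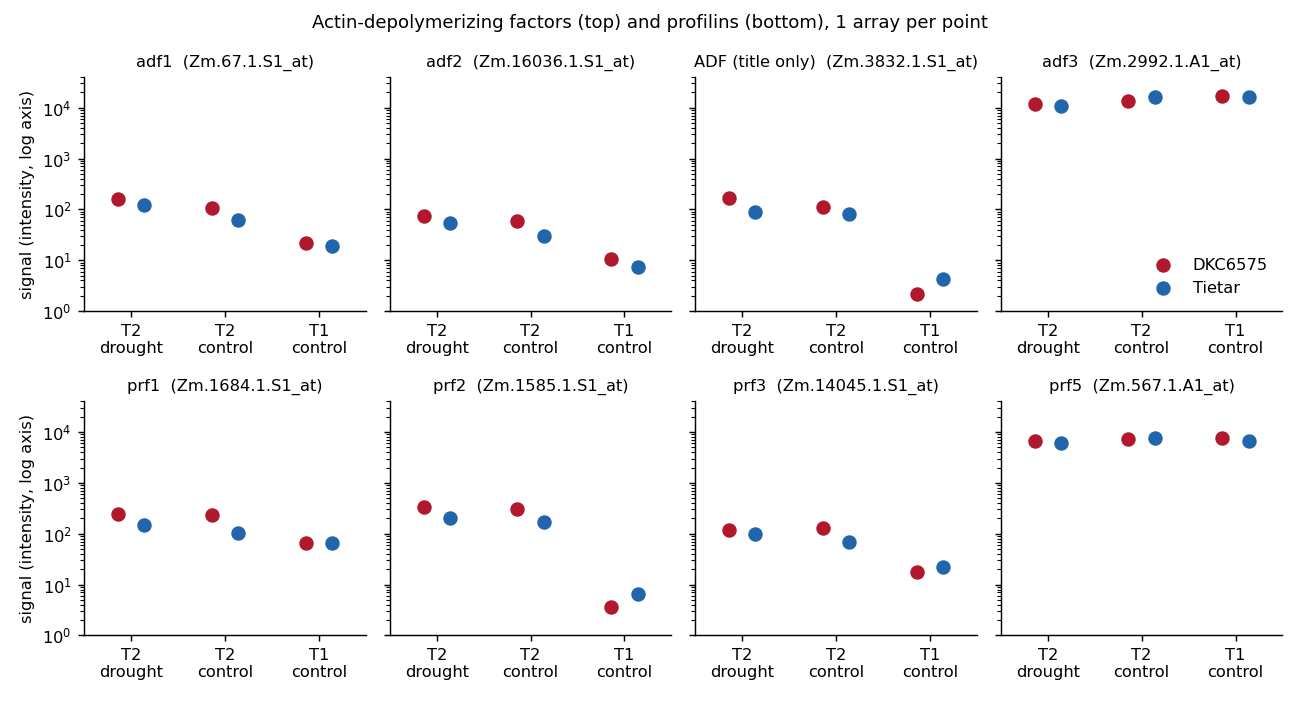
Signal (log axis) of 4 actin-depolymerizing factor probe sets (top) and 4 profilin probe sets (bottom) on the 6 arrays, ordered as T2 drought, T2 control and T1 control with DKC6575 left of Tietar; each point is 1 array. The genes adf1, adf2, prf2 and prf3 and the title-only ADF step up between T1 and T2, whereas adf3 and prf5 stay within 0.63 and 0.34 on the log2 scale.

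The remaining gene of the family, adf3 (NCBI gene 542445), had signals in the highest range of the array. Its probe set with the plain ending _at read 11766 in DKC6575 and 10731 in Tietar under T2 drought, 13472 in DKC6575 and 16100 in Tietar in the T2 control, and 16641 in DKC6575 and 16212 in Tietar at T1. Its 2 further probe sets followed the same order of conditions in DKC6575 and in Tietar. The drought differences of the 3 probe sets ran from -0.20 to -0.11 in DKC6575 and from -0.59 to -0.42 in Tietar, with common limma adjusted p-values between 0.268 and 0.389. Outside the 38, the brightest probe sets of the array were 251 with mean log2 signals of at least 13. Their median drought difference was -0.21 in DKC6575 and -0.46 in Tietar, values that stand side by side with those of adf3. After quantile normalization the drought differences were between 0.02 and 0.05 in DKC6575 and between -0.15 and -0.11 in Tietar.

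Under drought at T2, limma called 0 of the 38 probe sets. Over the array it called 1.03% of the probe sets, 97 higher (0.55%) and 85 lower (0.482%). Before adjustment, 3 of the 38 rose and 4 fell with a limma p below 0.05. Among all 17621 probe sets, 1331 rose and 1040 fell by the same measure. Of the 19 brighter probe sets, 4 were higher under drought in both varieties and 11 lower in both, against 35% higher and 26.9% lower in both over the 10383 brighter probe sets of the array. The 11 include all 3 adf3 probe sets, both of tua4, and tua6, tub3, tub7, KIN9, kin15 and the kinesin light chain, so that 5 of the 11 belong to 2 genes. The counts depended on the scaling. After quantile normalization, 3 were higher in both and 10 lower in both, against 28.5% and 31.3% of the array. There the adf3 probe sets were not lower in DKC6575. Under cyclic loess the counts were 3 and 14, against 29.7% and 30.8%. After median centring they were 3 and 14, against 23% and 38.9%. As deposited, the 4 are tua1, tub6, KIN1 and the kinesin heavy chain isolog. The median drought difference of the 19 was -0.11 in DKC6575 and -0.09 in Tietar.

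**Figure D3:**
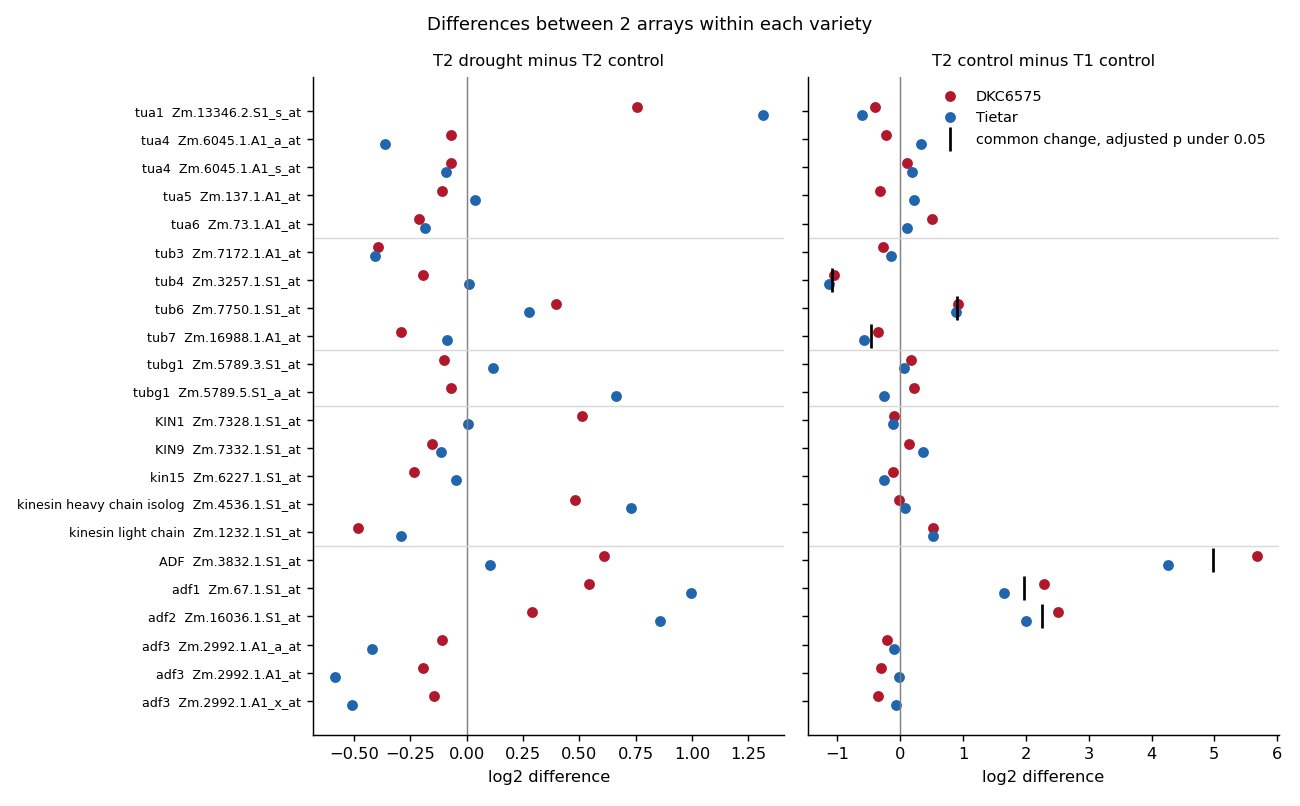
Log2 differences between 2 arrays of 1 variety for the 19 brighter probe sets and 3 actin-depolymerizing factors: T2 drought minus T2 control (left) and T2 control minus T1 control (right), with DKC6575 drawn above Tietar and a black bar at the common change where the limma adjusted p was under 0.05. No bar stands on the left, and tua1 is the farthest point there, at 0.76 and 1.31; on the right tub4, tub6, tub7, adf1, adf2 and the title-only ADF carry bars.

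Counted at 2-fold within a variety, which has no test, 4 of the 38 were higher and 1 lower under drought in DKC6575, and 3 higher and 5 lower in Tietar. Over the array 8.04% were higher and 5.94% lower in DKC6575, and 8.2% higher and 11.1% lower in Tietar. Nearly all such members were dim: of the 19 brighter probe sets, 0 differed 2-fold in DKC6575 and 1, tua1, in Tietar, against 1.24% and 4.21% of the brighter probe sets of the array. Between the stages 3 were higher and 6 lower in DKC6575, against 8.47% and 9.2% of the array, and 7 higher and 1 lower in Tietar, against 11.4% and 8.38%. Of the 19 brighter ones tub4 alone differed 2-fold, in each variety, against 3.21% of the brighter probe sets of the array in DKC6575 and 4.77% in Tietar. The kinesin KIN6 was the 1 member at least 2-fold lower under drought in both varieties, as 2.09% of the array were, at signals of 2.42 in DKC6575 and 3.93 in Tietar under drought, against 11.6 and 21.3 in the control (common difference -2.35, SE 0.78, limma adjusted p = 0.253).

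**Figure D4:**
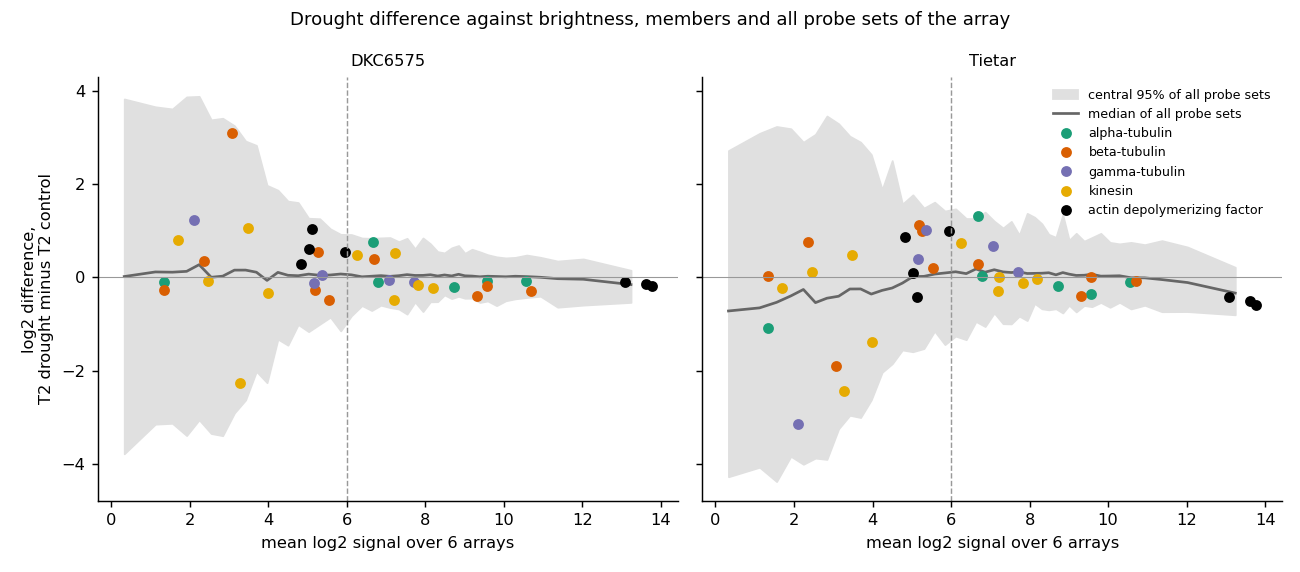
Log2 drought difference (T2 drought minus T2 control) against mean log2 signal for the 38 probe sets, coloured by group, in DKC6575 (left) and Tietar (right); the grey band holds the central 95% of all probe sets in bins of 400 and the dashed line marks a mean of 6. The band widens left of the line, and at the far right the adf3 points, at -0.11 to -0.20 in DKC6575 and -0.42 to -0.59 in Tietar, lie near the falling median of all bright probe sets.

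The steps of stage and drought added up for some members. Compared between T2 under drought and T1, a contrast chosen after the values were seen, 4 of the 38 were higher and 5 lower, while 16% of the array were called, 9.95% higher and 6.04% lower. The 5 were tub3 (-0.61, SE 0.10, limma adjusted p = 0.00692), tub4 (-1.18, SE 0.10, 0.000867), tub7 (-0.66, SE 0.10, 0.00506) and 2 probe sets of adf3 (-0.55, SE 0.14, 0.031, and -0.53, SE 0.13, 0.0297). The 2 adf3 differences were 0.018 and 0.045 after quantile normalization, while tub3, tub4 and tub7 stayed called under each of the 3 other scalings. Without either T1 array tub3, tub6, tub7 and both adf3 probe sets no longer passed. The call of tub6 was also lost without the drought array of DKC6575, those of adf3 without the drought array of Tietar, and that of adf2 without the T1 array of DKC6575, where its adjusted p was 0.05005. With any 1 array left out, tub4, adf1 and the title-only ADF stayed called. The 4 higher were tub6 (1.24, SE 0.21, 0.00745), adf1 (2.74, SE 0.30, 0.00179), adf2 (2.83, SE 0.44, 0.00541) and the title-only ADF (5.33, SE 0.53, 0.00136). Of the leaf markers, 13 of 20 were called lower and 0 higher over the same interval, with a median difference of -0.67 over the list. Most of those called were among the brightest probe sets of the array. Over the 251 probe sets outside the 38 with mean log2 signals of at least 13, the median was -0.55 in DKC6575 and -0.61 in Tietar. The part of the leaf markers in the falls of tub3, tub4 and tub7 was not tested.

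Between DKC6575 and Tietar, over the 3 conditions, limma called 0 of the 38, while it called 0.0511% of the array, 0.0114% higher and 0.0397% lower in DKC6575. At an unadjusted p under 0.05, 3 of the 38 were higher in DKC6575 and 1 was lower, against 413 higher and 644 lower of the 17621. The 3 were tub3, tub5 and tub6, all beta-tubulins. The lower one was the kinesin kin4 (NCBI gene 541858), with signals of 1.17, 0.667 and 1.74 in DKC6575 under T2 drought, in the T2 control and at T1, against 9.77, 11.4 and 7.75 in Tietar, a difference of -3.11 (SE 0.86, limma adjusted p = 0.617) in the dimmest range of the array. The other tub5 probe set differed by 0.12 and the dim tub6 probe sets by -0.22 to -0.18, and none of these passed. Of the 19 brighter probe sets, 0 differed 2-fold between the varieties in any condition, against 1.1% of the brighter probe sets of the array under T2 drought, 1.44% in the T2 control and 0.876% at T1.

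Genes that work with the cytoskeleton were followed in a list of 20 probe sets, with profilins, small GTPases of the ROP family, tubulin chaperones and parts of the actin-branching machinery. Between the T2 and T1 controls, 6 rose and 1 fell. Of the 6, 4 were the pollen profilins. The others were tubulin-specific chaperone A, which in animals binds newly folded beta-tubulin, and brk1, which in maize is needed for the lobes of leaf epidermal cells. The chaperone had 595.8 in DKC6575 and 508.5 in Tietar in the T2 control, against 370.5 and 395.3 at T1 (0.52, SE 0.12, limma adjusted p = 0.0338), a rise beside the falls of tub4 and tub7. The GTPase gene rop2 was the one that fell, at -0.48 (SE 0.12, limma adjusted p = 0.0488). Under drought 0 of the 20 were called, and 0 had an unadjusted p under 0.05.

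Markers of dividing cells, 29 probe sets for histones, cyclins and replication proteins, had 2 called higher in the T2 control and 0 lower, a share of 6.9% higher beside the 6.23% over the array. They were cycD2, at 0.64 (SE 0.12, limma adjusted p = 0.0167), and a histone H3.2, at 0.76 (SE 0.15, limma adjusted p = 0.0192). The summed signal of the list was 5550 in DKC6575 and 6075 in Tietar in the T2 control, against 5195 and 5184 at T1.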

How the data were processed

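Leaf RNA of 6 samples was hybridised to Affymetrix maize arrays. The study names RMA and the Partek software. The authors deposited intensity values that are not log-transformed and share their trimmed mean over all arrays, as after scaling of whole arrays. Signals were converted to log2. After 113 control probe sets of 17734 were left out, 17621 were fitted with limma 3.58.1 (R 4.3.3; condition plus variety, intensity trend). Calls have a Benjamini-Hochberg adjusted p under 0.05. Other values were computed with Python 3.11.15 and pandas 2.3.3, and plots with matplotlib 3.10.9. Fold changes in the study's supplement were not used.

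Simulated data for the drought comparison (17621 probe sets) had normal noise, sized by brightness from the difference between the T1 arrays. Changes were planted in brighter probe sets only, so recovery among dim ones was not tested. Of these, 89 of 100 2-fold and 100 of 100 4-fold changes were found, with 10 false calls. Among probe sets with mean log2 signals from 6 to 8, the SD of the T1 difference was 0.37. That of the drought difference, which also holds real changes, was 0.38 in DKC6575 and 0.56 in Tietar. The recovery may therefore overstate what the test finds in the real arrays. Members, gene lists, the trend and the alternatives were chosen with earlier results of these data known, and 3 probe sets were left out of the dividing-cell list by name after values were seen.

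Genes given in every array are brighter members that passed any contrast, members 2-fold different the same way in both varieties, and, of tua1, tua3, tub1 and tub4, those with a probe set; up to 4 of each other list were named. Others were named after their values were seen. The number of arrays limits the precision. Alternatives were other priors, filters, floors, scalings, thresholds and baselines, no block, and each array left out.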

Additional observations from a re-analysis of the deposited data

Results flagged for a closer look

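There were 3 dim probe sets that moved at least 2-fold in opposite directions in the 2 varieties; each rests on 1 array per condition, and the difference between the varieties was not tested. The dimmer tub5 probe set, of the type _a_at, had a drought difference of 3.09 in DKC6575 and -1.90 in Tietar, at signals between 2.00 and 20.1. The dimmer single-gene probe set of tubg1 had a drought difference of 1.22 in DKC6575 and -3.15 in Tietar, at signals between 1.76 and 15.5. The tub6 probe set of the type _x_at had a stage difference of -1.05 in DKC6575 and 1.39 in Tietar, at signals between 2.42 and 10.6. Brighter probe sets of tubg1 and tub6 did not show such moves.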

How the results depend on the processing

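With 1 array per variety and condition, conditions were compared within variety, which was the block. Without this block, 5 probe sets were called between the stages. Counts are of the 38 probe sets. They show how the calls depend on the settings, and the number called over the array moved as well. In the main fit it was 1691 of 17621 between the stages, 182 under drought and 2819 for T2 drought against T1. With the filter at 6 and no trend it was 1209 of 10383, 0 and 2515 in that order. Shares over the array in the other settings are not given here. Between the stages (6 called), 0 were called with no intensity trend, 0 with signals below 64 set to 64, 3 with a filter at a mean log2 of 6 (tub4, tub6 and tub7 with the trend; tub4, tub6 and the kinesin light chain without it), 2 with a filter at 8 (added after the values were seen), and from 2 to 6 with 1 array left out: 2 without the T1 array of DKC6575 and 3 without that of Tietar. Under drought (0 called), 1 was called at an adjusted p of 0.10, and from 0 to 2 with 1 array left out, the 2 being tua1 and adf3 without the T2 control array of DKC6575. T2 drought against T1 (9 called) gave 0 with no trend, 0 with the floor and from 3 to 11 with 1 array left out, 3 without the T1 array of DKC6575 and 4 without that of Tietar. In this contrast the adf3 probe sets turned to 0.018 and 0.045 after quantile normalization. The variety effect stayed at 0 throughout. Centring on the array median moved the median difference of all probe sets to -0.14 under drought in Tietar and to -0.13 between the stages in DKC6575, against -0.0018 and 0.03 as deposited.

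The 2-fold counts within a variety moved with the threshold and the filter. Over the array they moved with the filter too. Under drought 2463 of 17621 differed 2-fold in DKC6575 and 3399 in Tietar, against 129 and 437 of 10383 with the filter. The counts that follow are of the 38. Under drought, DKC6575 (5) gave 8 at 1.5-fold, 2 at 3-fold, 0 with the filter at 6 or the floor, 3 under cyclic loess, 2 under quantile normalization and 3 against the mean of both T2 controls; Tietar (8) gave 15, 3, 1 with the filter and 1 with the floor. Between the stages, DKC6575 (9) gave 5 at 3-fold and 1 with filter or floor, and Tietar (8) gave 14 at 1.5-fold, 4 at 3-fold and 1 with either. Between the varieties, T2 drought (4) gave 10 at 1.5-fold, T2 control (5) gave 15 at 1.5-fold and 3 at 3-fold, and T1 (4) gave 7 and 1, with 0 under filter or floor in each. Of 748 values of named genes, 677 stayed on the same side of the threshold, 31 of which were called in neither setting and changed sign, 62 lost the call, 7 gained it and the 2 adf3 values above reversed. Most of the 748 belong to comparisons in which the gene was not called in the main fit, so no call could be lost there. All lost and reversed calls fall on the 6 called between the stages and the 9 called for T2 drought against T1. The 677 is thus no measure of how stable those calls are. The mean of the varieties' median differences over the 38, -0.04 under drought and 0.02 between the stages, moved by less than the spread between the varieties.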

Other observations

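The array holds 6 control probe sets for maize actin, which were outside the test. Between the T2 and T1 controls they differed by -0.78 to -0.38 on the log2 scale in DKC6575 and by -1.30 to -0.05 in Tietar, and under drought by 0.03 to 0.45 in DKC6575 and by 0.02 to 1.04 in Tietar. The brightest, AFFX-Zm-actin-3_a_at, had signals of 4947 in DKC6575 and 4712 in Tietar under T2 drought, 4401 and 4636 in the T2 control, and 7058 and 7739 at T1. All 6 were lower in the T2 control than at T1 in both varieties.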
